A study of Xenopus laevis with 12 samples.

Results

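Intergenic Sox3 peaks close to a gene are described here: peaks of Sox3 enrichment that the annotation called intergenic and whose listed distance to the nearest transcription start site (TSS) was at most 10 kb. In blastula stem cells (stage 9) 16015 of 124076 peaks met this rule (12.9%, Wilson 95% interval 12.7 to 13.1%). In explants induced to neural plate border (NPB) and taken at stage 11.5, 760 of 5300 peaks did (14.3%, interval 13.4 to 15.3%). Together they make 16775 of the 129376 peaks in both lists. They were 31.7% of all intergenic peaks at stage 9 and 36.3% at stage 11.5, a difference of 4.61 percentage points (Newcombe 95% interval 2.54 to 6.74). All intervals cover counting error only.

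Sox3 is a SoxB1 transcription factor that binds DNA in the minor groove through its HMG box, usually together with a partner such as a POU factor, and it can bind closed chromatin. In early ectoderm SoxB1 factors help to keep cells undifferentiated and later mark neural progenitors. Intergenic sites a few kilobases from a TSS lie outside the core promoter, where transcription is started, and are the usual location of proximal enhancers, although position alone does not make a site an enhancer.

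The ChIP-seq was done in wild-type *Xenopus laevis* animal pole explants, the cells of the blastula roof, which with suitable cues can give rise to all cell types. At stage 9 there were 3 libraries from explants given Sox3 mRNA and 3 from explants given none. At stage 11.5 there were 3 libraries from explants given Sox3, Wnt8a and Chordin mRNA and 3 from explants given Wnt8a and Chordin mRNA alone. Wnt8a, a Wnt ligand, and Chordin, a BMP antagonist, induce the neural plate border, so both arms at stage 11.5 carried the induction. The precipitating antibody recognised the Myc tag on the injected Sox3, and endogenous Sox3 was not measured. The authors deposited 1 peak list per stage, so there is no spread between replicates, peaks are not replicates of a stage, and no p-value is given. The 2 stages were sequenced on different instruments, and their library depths are unknown. Only the stage 9 list states that all replicates were used. Stage, induction, sequencer, depth and any difference in the replicates used therefore cannot be told apart.

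Gene names could not be given. The lists identify transcripts by internal numbers, and of the 45796 identifiers 0 were found in a gene table built on a later assembly. Sites are therefore named by their position in the 9.2 genome.

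Most of these peaks lay upstream of the TSS at both stages. At stage 9 there were 11812 upstream (73.8%, interval 73.1 to 74.4%) and 4203 downstream, compared with 45.2% upstream among all stage 9 peaks with a TSS. At stage 11.5 there were 540 upstream (71.1%, interval 67.7 to 74.2%) and 220 downstream, compared with 47.8% upstream among all stage 11.5 peaks with a TSS. The difference between the stages was 2.70 percentage points, and its interval of -0.48 to 6.09 includes 0. The annotation itself favours the upstream side, because most sequence just downstream of a TSS belongs to the gene. Of all stage 9 peaks from 1 to 10 kb downstream, 65.7% were intronic and 18.4% intergenic, whereas 62.6% of those from 1 to 10 kb upstream were intergenic. At stage 11.5 the intergenic share was 24.6% downstream and 67.1% upstream.

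Distances to the TSS were alike at both stages. Median distances were 4682 bp (stage 9) and 4540 bp (stage 11.5), and 53.5% and 54.5% of the peaks lay within 5 kb. No peak came closer than 1001 bp at stage 9 or 1006 bp at stage 11.5, because nearer peaks on the upstream side fall into the promoter class. The closest downstream peaks lay at 1078 and 1199 bp. On the upstream side 16.9% of stage 9 and 20.4% of stage 11.5 peaks were at up to 2 kb, and 42.1% and 39.3% were between 5 and 10 kb. On the downstream side the peaks lay farther out, with 58.9% of the stage 9 and 60.9% of the stage 11.5 peaks between 5 and 10 kb.

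**Figure D1:**
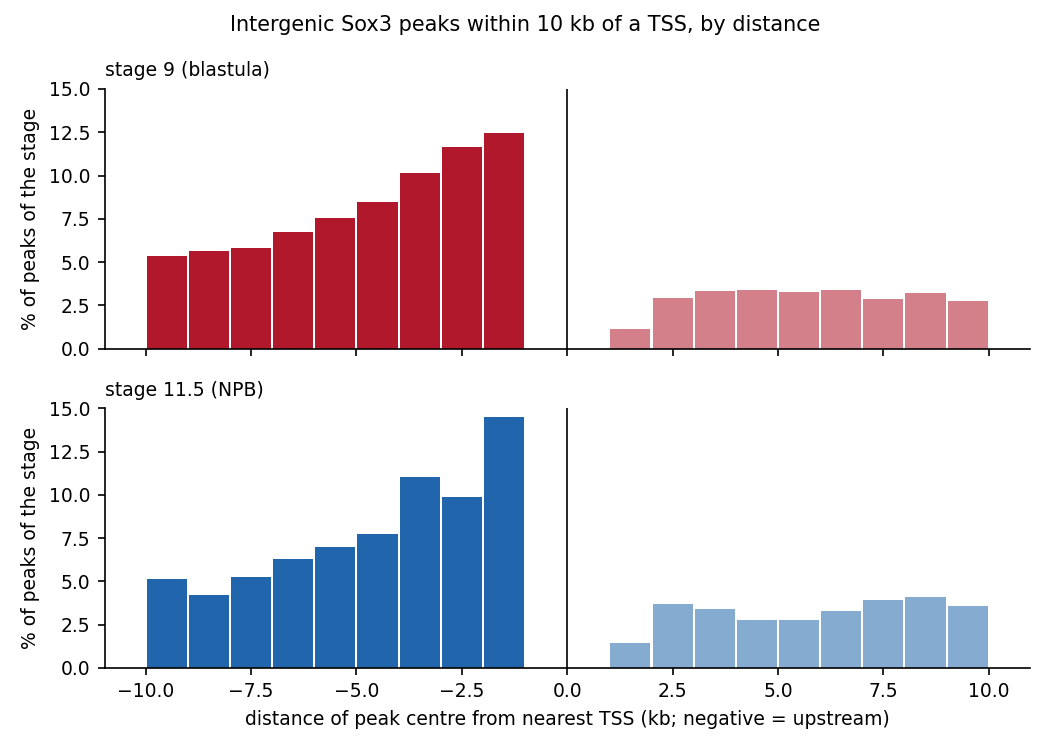
Share of the intergenic Sox3 peaks within 10 kb (y axis, % of the 16015 stage 9 or 760 stage 11.5 peaks) in 1 kb bins of distance from the nearest TSS (x axis, kb, upstream negative, downstream bars paler). At both stages the upstream bars are taller than the downstream bars, with 73.8% and 71.1% of peaks upstream.

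The limit of 10 kb cut through a continuous range. The last kilobase inside it held 1295 stage 9 and 66 stage 11.5 peaks, and the first kilobase outside held 1239 and 69. Median widths just inside and outside were 229 and 230 bp at stage 9, and 117 and 116 bp at stage 11.5. The upstream share was 65.9% inside and 64.6% outside at stage 9, and 59.1% and 59.4% at stage 11.5.

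Farther intergenic peaks were less one-sided. Between 10 and 50 kb from the TSS 58.6% of stage 9 peaks lay upstream, 15.2 percentage points below the share within 10 kb (interval 14.3 to 16.2). At stage 11.5 that share was 57.7%, which was 13.4 points below (interval 8.81 to 17.8). Beyond 50 kb the upstream shares were 54.3% and 60.6%. Promoter peaks, whose outermost centres lay at -1000 and 974 bp from the TSS, were upstream in 72.7% and 69.7% of cases. These shares were within counting error of those of the intergenic peaks within 10 kb. The promoter class is itself drawn by position around the TSS, and the part of its limits in these shares was not tested.

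**Figure D2:**
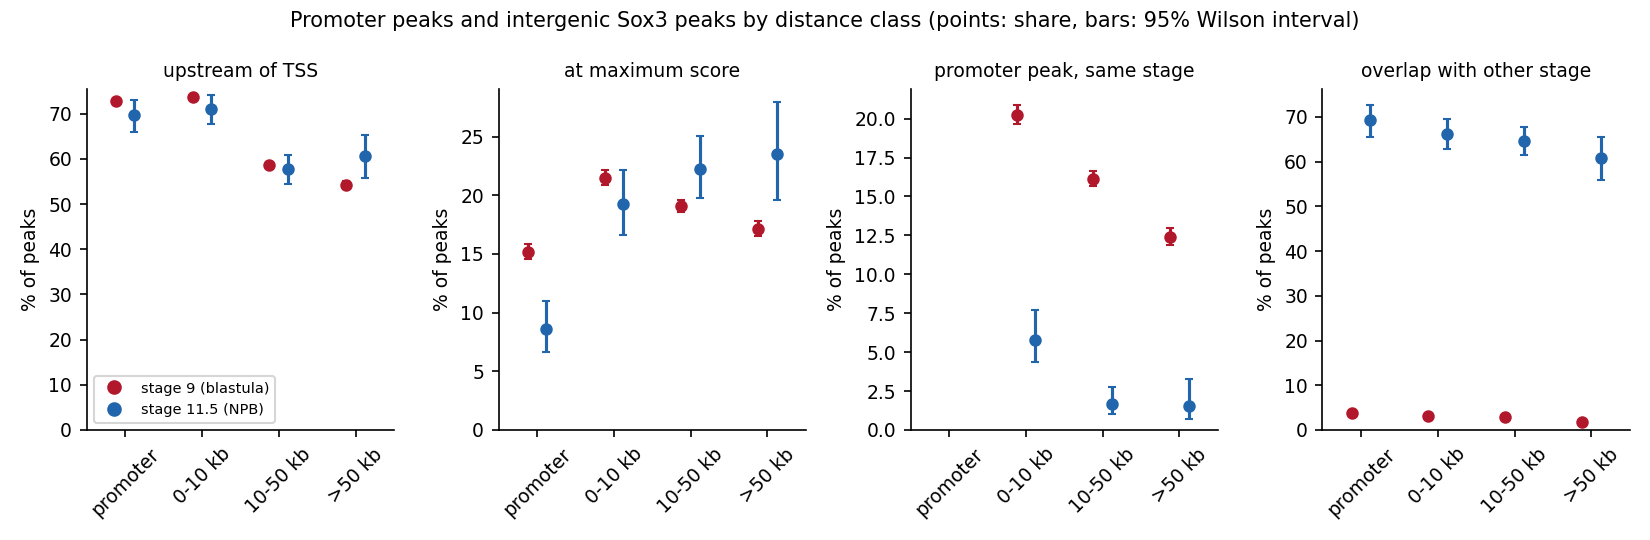
Share of peaks (y axis, %) that lay upstream of the TSS, were at the maximum score, had a promoter peak for the same transcript at the same stage, or overlapped the other stage's list, for promoter peaks and 3 intergenic distance classes (x axis). Points are shares and bars Wilson 95% intervals, and the promoter class is left out of the third panel. Intergenic peaks within 10 kb have a promoter peak more often than farther ones at both stages (20.3% and 5.79%).

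Intergenic peaks within 10 kb, like the lists as a whole, were wider at stage 9 than at stage 11.5. All peaks of the lists had median widths of 227 and 134.5 bp, and promoter peaks of 240 and 132 bp. For the intergenic peaks within 10 kb the median width was 239 bp at stage 9 (interval of the median 235 to 242), with quartiles of 132 and 402.5 bp and a range of 28 to 2189 bp. At stage 11.5 it was 132 bp (interval 127 to 143), with quartiles of 89.75 and 225.25 bp and a range of 40 to 4320 bp. The widest peak of the group was therefore a stage 11.5 peak, although the middle of the stage 11.5 distribution lay at the first quartile of stage 9. Together the peaks covered 4768815 bp at stage 9 and 145190 bp at stage 11.5. Width hardly differed between the sides, with medians of 241 bp upstream and 232 bp downstream at stage 9, and 133 and 132 bp at stage 11.5.

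The Peak Score is the peak caller's whole number, relative to the control libraries of the same stage and limited to 1000. Its median was 537 at stage 9 (quartiles 330 and 914.5) and 407 at stage 11.5 (quartiles 266 and 707). The maximum was reached by 3441 stage 9 peaks (21.5%, beside 18.8% of all stage 9 peaks) and by 146 stage 11.5 peaks (19.2%, beside 19.9% of all stage 11.5 peaks). The difference of 2.28 percentage points had an interval of -0.74 to 5.00. On the assembled chromosomes alone the shares of the intergenic peaks within 10 kb were 21.6% and 16.7%. The interval of that difference (1.82 to 7.64 points) no longer included 0. Among all peaks the shares on long (L) and short (S) chromosomes were 18.9% and 18.1% at stage 9, and 13.2% and 14.3% at stage 11.5. On unplaced scaffolds 48.1% of all stage 11.5 peaks were at the maximum, which raises the share of the whole list. Compared with promoter peaks, intergenic peaks within 10 kb reached the maximum more often at both stages, by 6.29 points at stage 9 (interval 5.36 to 7.22) and by 10.6 points at stage 11.5 (interval 7.04 to 14.2). The share at the maximum among farther intergenic peaks also lay above that of promoter peaks. It was 19.1% between 10 and 50 kb and 17.2% beyond at stage 9, both below the share within 10 kb with intervals that exclude 0. At stage 11.5 it was 22.3% and 23.5%, above the share within 10 kb, with intervals of the difference that include 0. Promoter peaks had median scores of 471 and 338.5.

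Few of the intergenic peaks near a gene were accompanied by a Sox3 peak at the promoter of that gene. At stage 9 a promoter peak for the same transcript was present for 3245 of 16015 peaks (20.3%, interval 19.6 to 20.9%), beside 15.9% of all stage 9 peaks outside promoters. At stage 11.5 it was present for 44 of 760 (5.79%, interval 4.34 to 7.68%), beside 3.19% of all such stage 11.5 peaks. The difference between the stages was 14.5 percentage points (interval 12.5 to 16.1). The difference did not hold when the stage 9 list was reduced to its largest peaks by area, as many as at stage 11.5: the stage 9 share was then 3.94% and the difference -1.85 points (interval -4.03 to 0.23). This changes both the number and the size of the stage 9 peaks, and their separate parts were not tested. When peaks under an area of 200 were removed from each list it was 4.59 points (interval -3.52 to 8.16), with 70 peaks left at stage 11.5.

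Upstream peaks had a promoter peak more often than downstream peaks. At stage 9 the shares were 23.5% upstream and 11.1% downstream, a difference of 12.5 points (interval 11.2 to 13.7). At stage 11.5 they were 6.67% (36 of 540) and 3.64% (8 of 220), and the interval of the difference (-0.80 to 6.04 points) included 0. Upstream, the stage 9 share was 25.5% at up to 2 kb and 22.4% between 5 and 10 kb. Intergenic peaks between 10 and 50 kb had a promoter peak in 16.1% of cases at stage 9, 4.12 points less than within 10 kb (interval 3.32 to 4.91). At stage 11.5 they had one in 1.70%, 4.09 points less (interval 2.31 to 6.09). At stage 9 peaks with a promoter peak were also wider (medians 266 and 232 bp). At stage 11.5 the medians were 166 bp over 44 peaks and 132 bp over 716 peaks, with overlapping intervals (107 to 198 and 126 to 142).

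Promoters near stage 11.5 sites were listed more often at the earlier stage than at stage 11.5 itself, in a stage 9 list that is 23.4 times as long. A stage 9 promoter peak was listed for the transcripts of 187 of the 760 stage 11.5 peaks (24.6%, interval 21.7 to 27.8%), beside 19.7% of all stage 11.5 peaks outside promoters. Of these 187 peaks, 27 also had a promoter peak at stage 11.5 (14.4%, interval 10.1 to 20.2%), beside 5.79% of all 760. Of the 44 peaks with a promoter peak at stage 11.5, 27 had one at stage 9 as well (61.4%), beside 24.6% of all 760. In the other direction, a stage 11.5 promoter peak was listed for 266 of the 16015 stage 9 peaks (1.66%), beside 1.07% of all stage 9 peaks outside promoters. Counted by transcript, 122 transcripts had a stage 9 promoter peak and a stage 9 intergenic peak within 10 kb that was overlapped at stage 11.5. A promoter peak was listed at stage 11.5 for 19 of them (15.6%, interval 10.2 to 23.0%). For all transcripts with a stage 9 promoter peak it was 369 of 10008 (3.69%, interval 3.34 to 4.07%). The 122 were selected by having a stage 11.5 peak, whereas the 10008 include transcripts without any. This contrast is therefore in part set by the selection.

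About the same share of the stage 11.5 sites near genes as of the whole list lay on a blastula site. A stage 9 peak was overlapped by at least 1 bp by 503 of the 760 peaks (66.2%, interval 62.7 to 69.5%), beside 65.2% of all stage 11.5 peaks. The share was 64.7% for intergenic peaks between 10 and 50 kb, 60.9% beyond 50 kb and 69.2% for promoter peaks, and the intervals of all 3 differences included 0. With only as many stage 9 peaks as stage 11.5 peaks, 25.4% of the 760 peaks overlapped. Upstream peaks overlapped in 67.6% and downstream peaks in 62.7% of cases (difference 4.87 points, interval -2.48 to 12.45). By distance the share was lowest for the 47 downstream peaks between 3 and 5 kb (55.3%, interval 41.2 to 68.6%) and highest for the 28 downstream peaks between 2 and 3 kb (85.7%, interval 68.5 to 94.3%). Upstream it varied only from 64.6% to 70.7%.

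Seen from stage 9, 494 of the 16015 peaks were overlapped at stage 11.5 (3.08%, interval 2.83 to 3.36%), beside 2.72% of all stage 9 peaks. Intergenic peaks beyond 50 kb were overlapped less often, by 1.36 points (1.72%, interval of the difference 1.01 to 1.71), and promoter peaks more often (3.86%), which is a difference of -0.77 points for the intergenic peaks within 10 kb (interval -1.23 to -0.33). The difference from peaks between 10 and 50 kb (2.81%) was within counting error. Upstream and downstream peaks were overlapped alike, in 3.04% and 3.21% of cases (interval of the difference -0.82 to 0.42 points). Whether the gene also had a stage 9 promoter peak went with a small difference, 4.19% with and 2.80% without. Among stage 9 peaks at the maximum score, a promoter peak was present for 27.1% of those overlapped and 23.4% of the others, and that interval (-0.64 to 8.57 points) included 0.

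The stage 9 peaks overlapped at stage 11.5 were wider and scored higher than the others. A wide peak meets another by 1 bp more easily than a narrow one, so the contrasts in width and area are in part set by the overlap rule. Overlapped stage 9 peaks had a median width of 598 bp, compared with 233 bp for the others, and 398 of 494 (80.6%) were at the maximum score, compared with 19.6% of the others. Most peaks at the maximum score were nevertheless not overlapped. Peak area, the product of score and width over 1000, is underestimated once the score has reached its maximum. When stage 9 peaks were put into 10 equal groups by area, 4 of 1602 (0.250%) were overlapped in the smallest and 265 of 1601 (16.6%, interval 14.8 to 18.5%) in the largest. The group next to the largest held 92 (5.75%). Below the maximum score 96 of 12574 peaks (0.763%) were overlapped, with a median score of 608 compared with 436 for those not overlapped. The whole stage 9 list was not split in this way. Whether these contrasts are particular to the intergenic peaks within 10 kb is therefore unknown.

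At stage 11.5 the scores were ordered the other way. Peaks on a blastula site had a median score of 366 and 13.1% were at the maximum, whereas the 257 peaks off a blastula site had a median of 498 and 31.1% were at the maximum. The difference in the share at the maximum was -18.0 points (interval -24.5 to -11.8). It was also present on the assembled chromosomes, with 11.3% and 28.8%. Peaks on a blastula site were nevertheless wider (medians 179 and 95 bp), and their median area was 55.3 compared with 43.5. The authors set a minimum area in peak calling, and the lowest areas listed were 19.936 at stage 9 and 19.992 at stage 11.5. A narrow peak therefore needed a higher score to be listed. The part of this limit in the order of the scores was not tested. By area the overlap rose from 51.3% (interval 40.3 to 62.2%) in the smallest of 10 groups to 75.0% (interval 64.2 to 83.4%) in the largest. The whole stage 11.5 list was not split in this way either, so these contrasts may not be particular to the intergenic peaks within 10 kb.

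**Figure D3:**
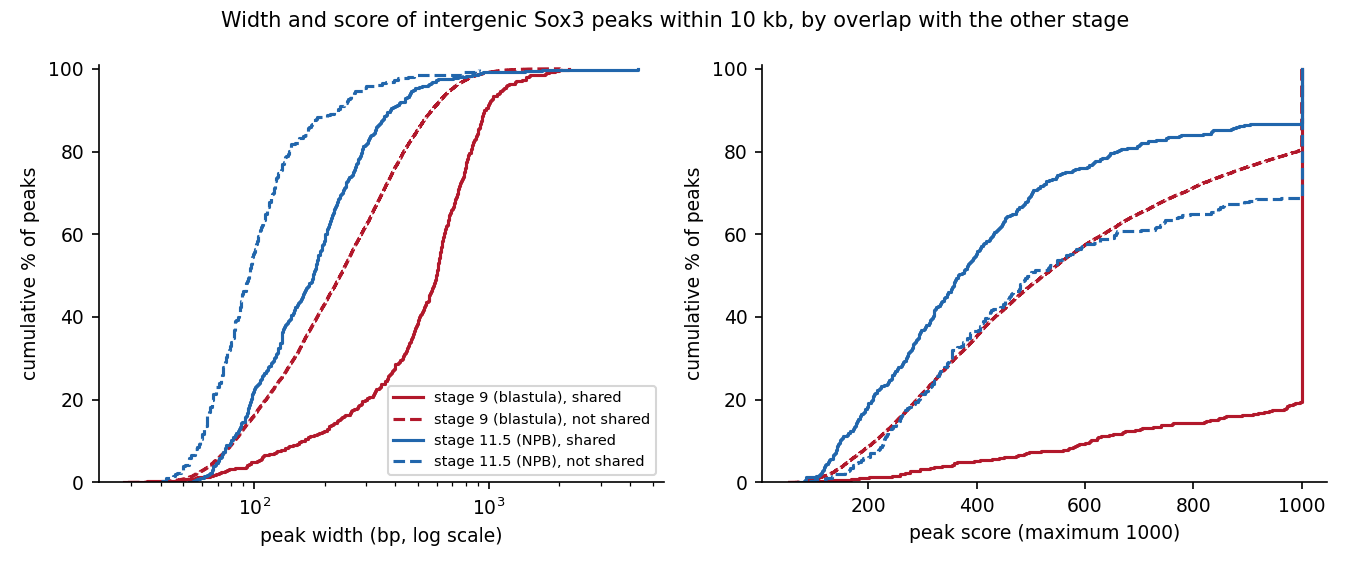
Cumulative share (y axis, %) of intergenic Sox3 peaks within 10 kb by width (left, bp, log scale) and by peak score (right, maximum 1000), for stage 9 (red) and stage 11.5 (blue) peaks that overlap the other stage's list (solid) or do not (dashed). Overlapping peaks are wider at both stages (medians 598 and 179 bp), but score higher only at stage 9 (medians 1000 and 366, compared with 524 and 498).

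**Figure D4:**
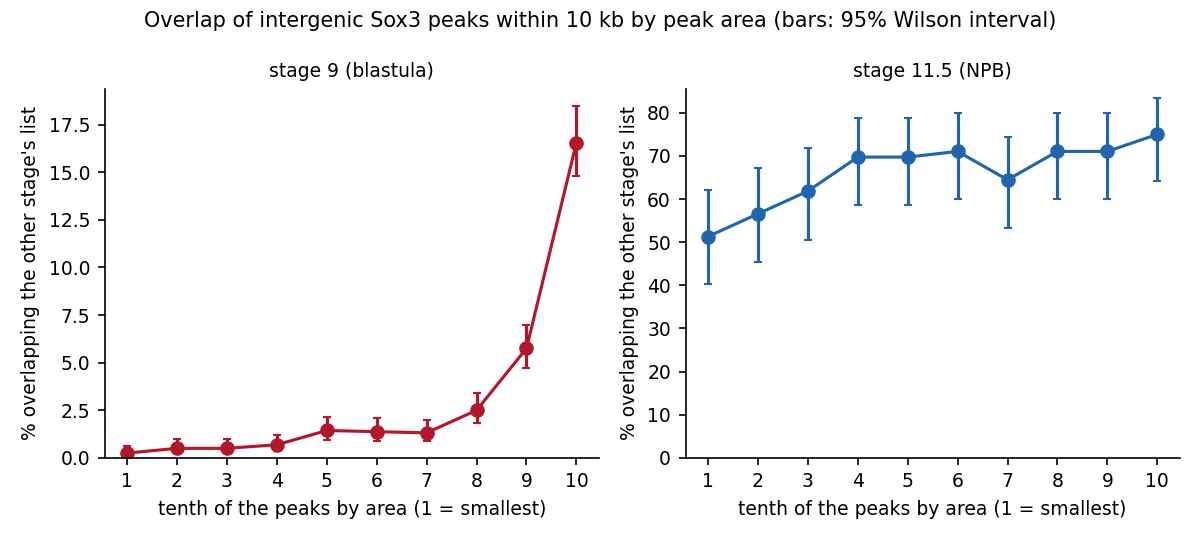
Share of intergenic Sox3 peaks within 10 kb that overlap the other stage's list (y axis, %) in 10 equal groups by peak area (x axis, 1 smallest), at stage 9 (left) and stage 11.5 (right), with Wilson 95% intervals. The stage 9 share is 0.250% in the smallest group and 16.6% in the largest, and the stage 11.5 share 51.3% and 75.0%.

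In most overlapping pairs the stage 11.5 peak lay wholly inside the blastula peak. For 495 of the 503 overlapping stage 11.5 peaks the stage 9 partner was itself an intergenic peak within 10 kb, on 477 distinct stage 9 peaks. The other partners were 3 promoter peaks, 3 peaks at transcription termination sites and 2 intergenic peaks just past the limit. The same transcript was nearest in both lists for 499 of 503 pairs. In 390 of the 495 pairs (78.8%) the stage 11.5 peak lay wholly within the stage 9 peak. The centres were 76.5 bp apart in the median (quartiles 35.5 and 144 bp), and within 100 bp in 298 pairs (60.2%). Pairs were selected by overlap, and most stage 9 peaks of the pairs were the wider ones. Containment, near centres, a shared transcript and a shared class are therefore in part set by the selection.

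The paired peaks were smaller at stage 11.5. The stage 9 peak was wider in 445 of 495 pairs (89.9%), by 3.06 times in the median (quartiles 1.90 and 5.12). Median widths were 608 bp at stage 9 and 180 bp at stage 11.5. The stage 9 score was higher in 405 pairs, equal in 60, all with both peaks at the maximum, and lower in 30. Scores are set against different controls and depths, so these counts describe the lists. The size at one stage said little about the size at the other: across the 495 pairs Pearson's r of the log2 areas was -0.01 and Spearman's rho 0.02, and for width they were 0.14 and 0.18. All pairs share the same 2 sets of libraries, 81.2% have a stage 9 score at the maximum, and pairs were selected by overlap, which favours wide peaks. All peaks of the lists also differed in median width (227 bp at stage 9 and 134.5 bp at stage 11.5). Pair values were not computed over all overlapping peaks, so whether they are particular to these sites is unknown.

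**Figure D5:**
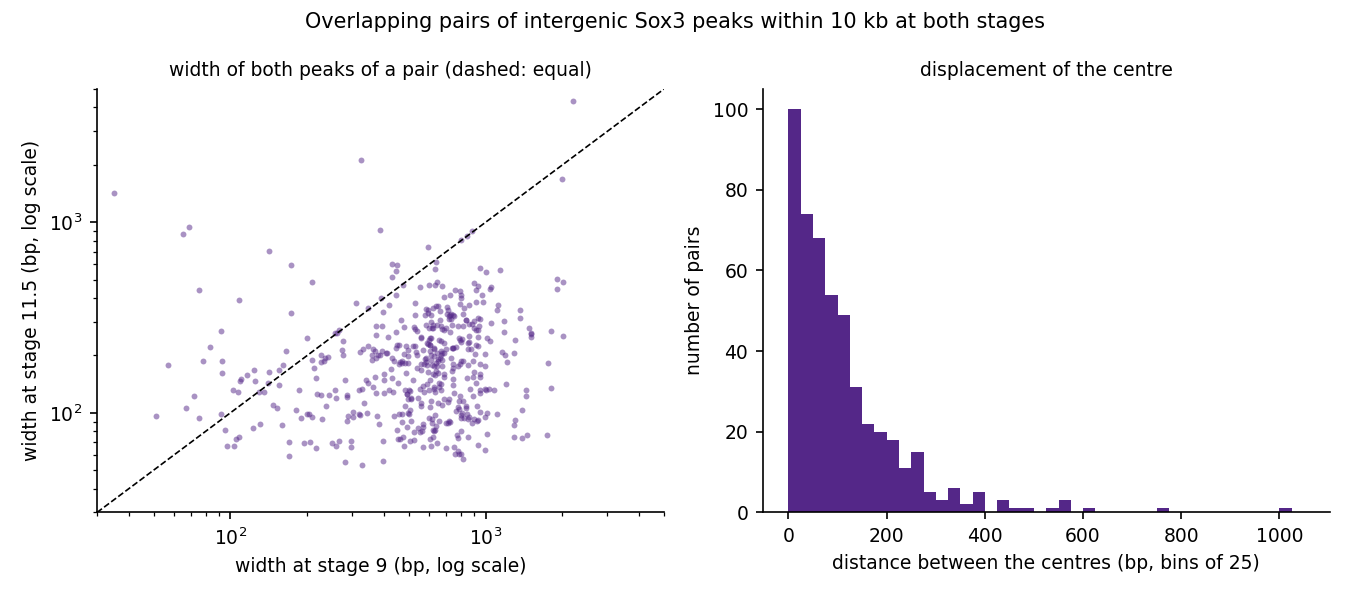
Overlapping pairs of intergenic Sox3 peaks within 10 kb (495 pairs). Left, width at stage 11.5 (y axis) against width at stage 9 (x axis, both bp on log scales), with 445 pairs below the dashed line of equal width; right, number of pairs (y axis) by distance between the centres (x axis, bp), with a median of 76.5 bp.

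Among the intergenic peaks within 10 kb, the site with the largest area was the same at both stages, upstream of a transcript on chromosome 8L. At stage 9 it spanned chr8L:99756679-99758867, 2189 bp at the maximum score with its centre 6360 bp upstream of the TSS. At stage 11.5 it spanned chr8L:99756635-99760954, 4320 bp at the maximum score, so it was one of the few sites that were wider at the later stage. The next stage 9 peak by this rule, at chr9_10L:16959773-16961773 (2001 bp, 6824 bp upstream), held a stage 11.5 peak of 487 bp, both at the maximum score. Another, at chr3S:12588465-12590450 (1986 bp, 1603 bp upstream), held a stage 11.5 peak of 1683 bp with a score of 701. The remaining ones lay downstream, 2588 bp from a TSS at chr3L:133967861-133969771 (1911 bp) and 8717 bp from a TSS at chr9_10L:17261732-17263540 (1809 bp). Their stage 11.5 peaks were 504 bp with a score of 361 and 269 bp with a score of 488. All 5 of these stage 9 peaks were overlapped at stage 11.5. The share was 3.01% of all stage 9 peaks of this group on assembled chromosomes, and 16.6% in the largest of the 10 groups by area. None of the 5 had a promoter peak for its transcript in either list, beside shares at stage 9 of 20.3% and 29.2% with a stage 9 promoter peak. The 5 were picked by size, which the overlap rule favours, and do not stand for large peaks in general.

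Among the largest stage 11.5 peaks some lay on blastula peaks narrower than themselves. The peak at chr7S:78902351-78903298 (948 bp, 5667 bp upstream) overlapped a stage 9 peak of 69 bp, and the peak at chr3L:4497843-4498756 (914 bp, 1617 bp upstream) one of 385 bp, all at the maximum score. On unplaced sequence, a peak of 2113 bp on Scaffold20 and one of 1429 bp on Scaffold78, both at the maximum score, overlapped stage 9 peaks of 324 and 35 bp. The stage 11.5 area was larger than the stage 9 area in 36 of 495 pairs, of which 9 lay on scaffolds, compared with 42 of all 495 pairs. The stage 11.5 peak was at the maximum score in 30 of these 36 pairs.

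No blastula peak was overlapped by 257 stage 11.5 peaks, which lay within 1 kb of one about as often as all 1842 such peaks of the list. A stage 9 peak was within 1 kb for 60 of them (23.3%, interval 18.6 to 28.9%), beside 22.1% of all. It was within 10 kb for 162 (63.0%, interval 57.0 to 68.7%), beside 54.0% of all. Peaks on a sequence without any stage 9 peak count as not near in these shares. They were 5 of the 257, and their number among all 1842 was not counted. The part of this in the contrast was not tested. The median gap, where the sequence held a stage 9 peak, was 5811 bp, beside 4634 bp for all. For 172 of the 257 peaks (66.9%, interval 61.0 to 72.4%) the transcript had a stage 9 peak somewhere, beside 75.6% of all those assigned to a transcript. The largest was at chr5S:59119298-59120209, 912 bp at the maximum score, 4908 bp upstream of a TSS and 2285 bp from the nearest stage 9 peak. A second peak of 770 bp, at chr5S:59118043-59118812, lay beside it, 6234 bp upstream of the same TSS. Others were at chr2L:148229654-148230526 (873 bp, 1981 bp downstream), chr5L:123244420-123245196 (777 bp, 3992 bp upstream) and chr5L:146056991-146057468 (478 bp, 6593 bp upstream). Only the last of these had a stage 9 peak at the promoter of its transcript.

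Most transcripts had a single intergenic peak within 10 kb. At stage 9 there were 11438 such transcripts, of which 8224 (71.9%) had 1 peak, 2270 had 2 and 944 had 3 or more, up to 8. At stage 11.5 there were 662, of which 587 (88.7%) had 1 peak, 59 had 2 and 16 had 3 or more, up to 7. Peaks on both sides of the TSS were found for 414 stage 9 and 7 stage 11.5 transcripts. Of the 662 stage 11.5 transcripts, 588 (88.8%) had a stage 9 peak of any class, beside 3488 of all 3835 transcripts with a stage 11.5 peak (91.0%). An intergenic stage 9 peak within 10 kb was listed for 513 (77.5%), beside 1211 of the 3835 (31.6%), which include transcripts whose stage 11.5 peaks all lay elsewhere. In 440 of these 513 (85.8%) a stage 11.5 peak overlapped a stage 9 one, and in the rest the peaks of the stages did not coincide.

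The stage 9 transcripts with the most intergenic peaks within 10 kb had 8 each. At rna72486, on chromosome 6L with its TSS at 106679420 on the plus strand as computed from the listed distances of 10 peaks, all 8 lay upstream, between 1631 and 9995 bp. Their widths ran from 81 to 823 bp, 4 were at the maximum score and 1 was overlapped at stage 11.5. That one was at chr6L:106675834-106676569 (736 bp), where the stage 11.5 peak was 289 bp wide with a score of 271. The widest, of 823 bp at the maximum score, lay 526 bp from the stage 11.5 peak and was not overlapped. At rna57683, on chromosome 7L, 6 peaks lay upstream and 2 downstream, from 1133 to 9252 bp away. Of these 3 were at the maximum score and none was overlapped at stage 11.5, although a stage 11.5 peak lay 491 bp from one of them.

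The stage 11.5 transcripts with the most intergenic peaks within 10 kb had no intergenic stage 9 peak within 10 kb. At rna62213, on Scaffold28, 7 peaks flanked a TSS at 9270, with 3 upstream and 4 downstream between 3245 and 9799 bp. They were narrow, from 82 to 178 bp, and 6 of the 7 were at the maximum score. The nearest stage 9 peak was at least 141514 bp away. At rna72330, on chromosome 6S, 6 peaks lay 3568 to 8141 bp downstream of the TSS, with widths of 58 to 292 bp and scores of 421 to 1000, and no stage 9 peak within 10660 bp. Neither transcript had a promoter peak in either list. Large groups were uncommon: 16 of the 662 stage 11.5 transcripts (2.42%) had 3 or more intergenic peaks within 10 kb. Of the 257 stage 11.5 peaks off a blastula site, 53 (20.6%) shared their transcript with another such peak, both groups above included.

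Peaks were also more crowded at stage 9. Another peak of the same list lay within 1 kb of 4133 stage 9 peaks (25.8%) and of 114 stage 11.5 peaks (15.0%), and median gaps to the nearest peak were 3134.5 and 31396 bp. These values were not computed over all peaks of the lists, so whether they are particular to the intergenic peaks within 10 kb is unknown. The lists differ in length by 23.4 times, and the part of this in the gap was not tested.

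The genome of *X. laevis* holds a long (L) and a short (S) copy of each chromosome from its ancestral hybridisation. The S chromosomes held 44.1% of the stage 9 and 44.7% of the stage 11.5 peaks on assembled chromosomes, with an interval of the difference of -4.47 to 3.23 points. Overlap with stage 9 was 68.2% on L and 70.4% on S chromosomes (interval of the difference -9.12 to 4.92 points). Among the 18 chromosomes the number of stage 11.5 peaks ran from 23 on 6S to 64 on 1L, or from 3.42 per 100 stage 9 peaks on 4L to 5.54 on 8L. The overlapping share ran from 48.7% on 6L (19 of 39) to 92.3% on 4S (24 of 26). These are extremes picked among 18 chromosomes with 23 to 64 stage 11.5 peaks each. Intervals and shares over all peaks per chromosome were not computed. Unplaced scaffolds held 12.5% of the stage 11.5 and 6.81% of the stage 9 peaks (difference 5.69 points, interval 3.49 to 8.26), beside 18.2% and 7.13% of all peaks. The 95 stage 11.5 peaks there differed from those on chromosomes: 36.8% were at the maximum score, compared with 16.7%, 52.6% lay upstream, compared with 73.7%, and 45.3% overlapped a stage 9 peak, compared with 69.2% (difference 23.9 points, interval 13.3 to 34.1). Among all stage 11.5 peaks on scaffolds 48.1% were at the maximum score and 44.0% overlapped a stage 9 peak, so these values are shared with the whole list.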

How the data were processed

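Sox3 ChIP-seq libraries were made from explants crosslinked for 15 min and tagmented with Tn5 for 40 min. The authors trimmed reads with fastp and aligned them to genome 9.2 with bowtie2. Genrich, with a minimum peak area, was used to call the peaks of each stage over its controls, and HOMER to annotate them. The sample labels also name SAMtools and Picard, and whether duplicate reads were removed is not given in the sources used here. The deposited values are the peak score, the positions and the distance of the peak centre to the TSS; other columns hold annotations. Only the stage 9 header states that all replicates were used.

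Peaks were selected, overlapped (at least 1 bp) and counted in Python 3.11.15 (pandas 2.3.3, numpy 2.4.6; scipy 1.17.1 for intervals) and plotted in matplotlib 3.10.9. A promoter peak is one annotated promoter-TSS with the same nearest transcript. Shares have Wilson and differences Newcombe 95% intervals, and medians order-statistic intervals. The overlap was tested on simulated data (100% of 5300 peaks correct). TSS positions were computed from peak centres and listed distances. Peaks named by position were, among the intergenic peaks within 10 kb, the 5 of largest area per stage on assembled chromosomes, the 5 largest overlapping pairs, the 5 largest stage 11.5 peaks without overlap and, per stage, the peaks of the 2 transcripts with the most peaks. The peaks and comparisons were chosen with earlier results of these data known. Alternatives covered the distance limit, the set of peaks, the promoter definition and the overlap rule. Genome sequence was not used here.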

Additional observations from a re-analysis of the deposited data

How the results depend on the processing

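Of 50 comparisons of a result with an alternative, 25 stayed within the interval of the reported value, 23 moved outside it and 2 reversed, counting as reversed only a difference whose reported interval excludes 0. In 3 the sign turned, the third being the difference at the maximum score with a minimum area of 200. The cause of these changes was not tested.

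With peaks at or above the median score of their list, the promoter-peak difference between the stages was 8.10 points, median widths were 338 and 123 bp, and 55.5% of stage 11.5 and 2.64% of stage 9 peaks overlapped. With a minimum area of 200, the difference in the share at the maximum score was -9.51 points and the promoter-peak difference 4.59 points, widths were 476 and 409 bp, and overlaps 57.1% and 0.770%. When the stage 9 list was shortened to the length of the stage 11.5 list by area, the difference at the maximum score was 70.2 points. The promoter-peak difference was then -1.85 points, counted as reversed although its interval (-4.03 to 0.23) includes 0. The stage 9 width was 811.5 bp, and overlaps were 25.4% and 20.2%. Fewer peaks enter by construction in these 3 settings. Without peaks that have a neighbour within 1 kb, the promoter-peak difference was 12.0 points and the stage 9 overlap 2.57%.

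The promoter-peak difference was 20.1 points when any peak within 1 kb of the TSS counted. With promoter peaks of the other stage it was -22.9 points and was counted as reversed. That setting matched stage 9 peaks to 630 promoter peaks and stage 11.5 peaks to 10677. It is a different quantity, and its sign depends on the lengths of the lists. Overlaps were 62.5% and 0.830% with at least 50% of the peak covered, 74.1% and 4.13% within 1 kb, and 1.89% at stage 9 by the centre. Results on the assembled chromosomes and within 5 kb stayed within the intervals.

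No paired analysis was possible because a single list covers each stage. For the same reason, results without single replicates could not be computed. Depth is unknown and limits comparisons of numbers and widths across stages.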
